A study of Homo sapiens with 4 samples.

Results

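Wide RNA polymerase II (RNAPII) domains that cover TAF3 sites were examined in HCT116 cells, a long-established line from a human colorectal carcinoma. From the authors' filtered list of 25013 RNAPII peaks, the 790 that were at least 5000 bp long and shared at least 1 base with a filtered TAF3 peak were taken. The members were thus chosen by RNAPII peak length and TAF3 overlap, and every RNAPII and TAF3 value below is a description. H3K4me3 was the measure that the choice did not use.

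TAF3 is a subunit of TFIID, the general transcription factor that recognises core promoters and from which assembly of the preinitiation complex starts. Its PHD finger, a small reader domain, binds histone H3 trimethylated at lysine 4 (H3K4me3), a mark of active promoters. RNAPII accumulates close to start sites where it initiates and pauses, and it also crosslinks along transcribed genes, so that its signal can extend from a promoter as one long domain. Where TAF3 and H3K4me3 lie within such a domain shows how far promoter features extend under the polymerase signal.

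The series holds 4 libraries of formaldehyde-fixed HCT116 monolayers. There is 1 chromatin immunoprecipitation library each for TAF3 (a polyclonal antiserum against part of the human protein), H3K4me3 (Abcam ab8580) and RNAPII (Santa Cruz N-20), and 1 input DNA library made without antibody, against which all peaks were called. The line is a single cancer cell line, and whether separate cultures were used is not stated in the labels. Per the file headers, tags (mapped reads) left after duplicate removal numbered 17411155 for TAF3, 12560129 for H3K4me3 and 16841238 for RNAPII, with 19185386 in the input. Before removal they numbered 20290520 for TAF3, 20995096 for H3K4me3 and 20074412 for RNAPII, so the H3K4me3 library lost the most. The part of this loss in the H3K4me3 values below was not tested. With 1 library per antibody no difference has a replicate check and no p-value is given. Intervals below are 95% Wilson intervals for shares and Newcombe intervals for differences, which cover the counting of peaks only, since peaks are not replicates. Coordinates are hg19, counted from 1. No gene annotation or genome of that build was used here, so regions are given by position, and whether each TAF3 site is an annotated promoter was not checked.

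The wide TAF3 domains were few, and most of the polymerase signal in peaks lay in narrower peaks with TAF3. Those narrower peaks held 54.0% of the RNAPII tags in peaks on 36.9% of the bases. The wide domains made up 3.16% of RNAPII peaks, spanned 6.82 Mb or 12.5% of the bases in RNAPII peaks, and held 17.2% of the RNAPII tags in peaks. Their median length was 7484.5 bp (quartiles 5964.75 and 9957 bp), and the range ran from 5004 to 29527 bp. TAF3 overlapped 46.2% of all RNAPII peaks, and the wide domains were 6.84% of the 11546 RNAPII peaks with TAF3. The other RNAPII peaks of at least 5000 bp, which lacked TAF3, numbered 825, and 10756 narrower RNAPII peaks had TAF3. Just inside the length limit were members of 5004, 5009 and 5027 bp at chr15:66992822-66997825, chr5:179047263-179052271 and chr19:41220393-41225419. Their TAF3 fold enrichments over input were 36.5, 86.0 and 28.6. Just outside it were peaks of 4995, 4992 and 4988 bp at chr16:30074468-30079462, chr9:95430924-95435915 and chr15:69109122-69114109, with TAF3 fold enrichments of 30.8, 52.7 and 77.5. The ranges of TAF3 fold on the 2 sides of the limit overlapped.

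H3K4me3 marked nearly all wide TAF3 domains and few of the wide RNAPII peaks without TAF3. An H3K4me3 peak was present in 770 of 790 wide TAF3 domains (97.5%, 95% interval 96.1 to 98.4%), against 67 of 825 wide RNAPII peaks without TAF3 (8.12%, 6.45 to 10.2%) and 10570 of 10756 narrower peaks with TAF3 (98.3%, 98.0 to 98.5%). The share over all RNAPII peaks was 54.6%. The difference from wide peaks without TAF3 was 89.3 percentage points (86.9 to 91.2). The difference from narrower peaks with TAF3 was -0.802 points (-2.17 to 0.123), an interval that includes 0. RNAPII itself differed between these classes, with a median fold enrichment of 115 in wide TAF3 domains, 23.7 in wide peaks without TAF3 and 107 in narrower peaks with TAF3. The part of RNAPII strength in the H3K4me3 difference was not tested.

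Within the wide domains TAF3 sat off-centre, at varied distances from the ends. Positions were taken from the summit, the base of highest tag density that the authors' peak caller reports, of the TAF3 peak with the highest fold enrichment. This summit lay inside the domain in 788 of 790 members, at a median of 1584.5 bp from the nearer end (quartiles 1066.25 and 2447.75 bp), against 622 bp in narrower RNAPII peaks with TAF3. As a share of domain length the median distance was 21.4% in wide domains, against 38.8% in narrower peaks. The centre is at 50%, and positions spread evenly along a domain would have a median of 25%. The median of TAF3 was thus not far from that of even placement, but its summits were not evenly spread. With even placement the outermost 10%, like each further step of 10%, would hold 20% of summits. More than this lay in each step from 10 to 30% of the length, and fewer in the outermost 10% and in the steps above 30%. Of the 788 summits, 116 (14.7%) lay in the outermost 10% of the length at that end, 247 (31.3%) at 10 to 20%, 194 (24.6%) at 20 to 30%, 123 (15.6%) at 30 to 40% and 108 (13.7%) at 40 to 50%. A summit within 1000 bp of an end was found in 173 domains (22.0%), against 9074 of 10609 narrower peaks (85.5%), whose median length was 1679 bp.

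The distance from the TAF3 summit to each end divides a domain into a longer and a shorter arm. The longer arm had a median of 5845.5 bp and the shorter arm a median of 1583 bp. The longer arm was at least 2 times the shorter in 610 of 790 wide domains (77.2%), against 3384 of 10756 narrower peaks (31.5%). It was at least 5 times the shorter in 285 wide domains (36.1%), against 374 narrower peaks (3.48%). Arm length is part of domain length, so longer peaks have more room for unequal arms.

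**Figure D1:**
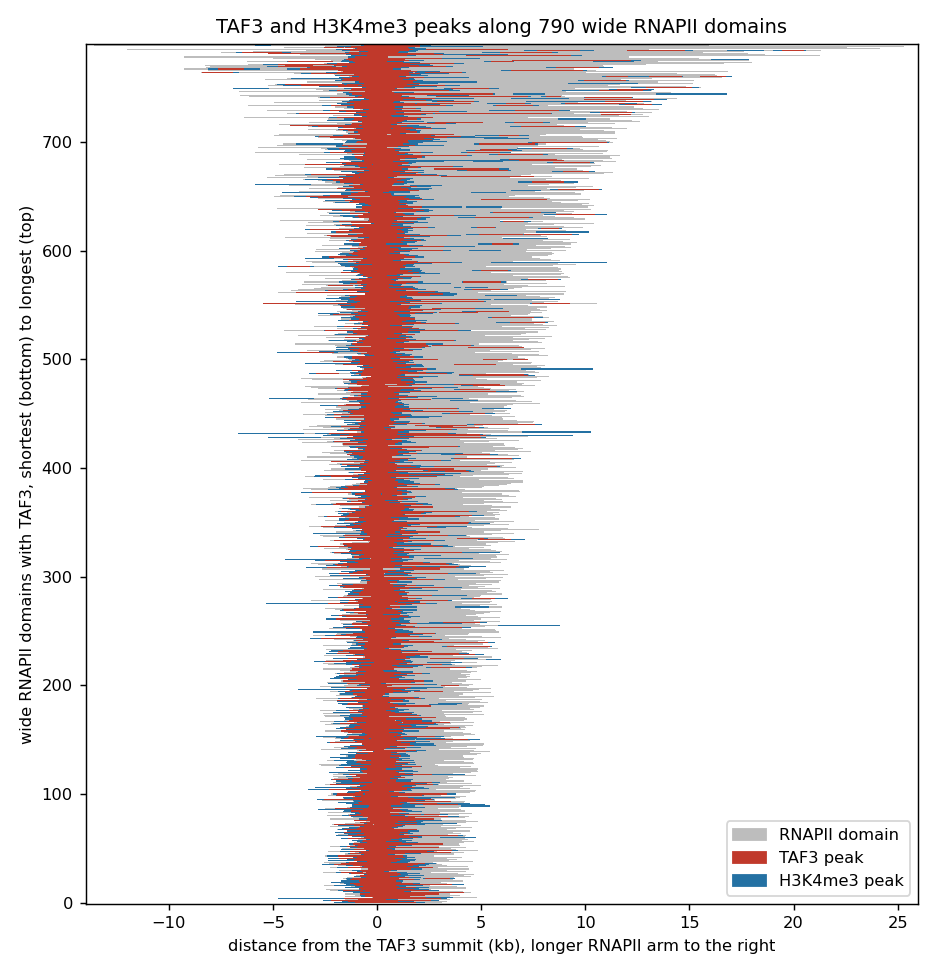
Each row is 1 of the 790 wide RNAPII domains, ordered by length from bottom to top, and the horizontal axis is the distance in kb from the strongest TAF3 summit with the longer arm to the right. Grey bars are RNAPII domains, blue bars H3K4me3 peaks and red bars TAF3 peaks, drawn on top, so H3K4me3 shows only where TAF3 does not cover it. TAF3 and H3K4me3 form a band at 0 while the grey arm on the right lengthens upward.

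The RNAPII summit of the domain lay on the TAF3 summit in most members. The median distance between them was 41.5 bp in wide domains, against 43 bp in narrower peaks with TAF3. It was at most 100 bp in 539 of 790 wide domains (68.2%), against 7353 of 10756 narrower peaks (68.4%). The RNAPII summit was a median of 1596.5 bp from the nearer end, 21.4% of the length, as TAF3 was. In 78 wide domains the RNAPII summit lay more than 1000 bp from the TAF3 summit. It was on the longer arm in 71 of these (91.0%), against 188 of 193 in narrower peaks (97.4%). The RNAPII summit lies inside its own peak, so a shorter arm under 1000 bp cannot hold one this far away. The side of these summits therefore depends in part on how the arms are defined.

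H3K4me3 shared the off-centre position of TAF3 and lay slightly to its inner side. The H3K4me3 peak nearest to the TAF3 summit was used. Its summit was a median of 1715 bp from the nearer end, or 22.4% of the length, over the 763 of 770 that fell inside the domain. It was a median of 309.5 bp from the TAF3 summit in wide domains, against 221 bp in narrower peaks with TAF3. Of the TAF3 summits, 758 of 770 (98.4%) lay inside that H3K4me3 peak, and 566 of 770 TAF3 peaks (73.5%) lay in it whole, against 8936 of 10570 (84.5%) in narrower peaks.

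The H3K4me3 summit was displaced from TAF3 in the direction of the longer RNAPII arm. It was on that side in 535 of 770 wide domains (69.5%, 95% interval 66.1 to 72.6%), against 6024 of 10570 narrower peaks (57.0%, 56.05 to 57.9%), a difference of 12.5 points (9.02 to 15.8). The median displacement toward the longer arm was 151.5 bp (quartiles -107.25 and 377 bp) in wide domains, against 83 bp (quartiles -141 and 313 bp) in narrower peaks. The negative lower quartiles are domains with the H3K4me3 summit on the shorter-arm side, which numbered 235 of 770 wide domains. The TAF3 summit defines both the arms and the displacement, so an error in its position moves both.

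The side of H3K4me3 varied with how unequal the arms were. In wide domains with a longer arm of 1 to 1.5 times the shorter, the H3K4me3 summit was on the longer-arm side in 54 of 100 (54.0%, 95% interval 44.3 to 63.4%). The share was 55.1% for ratios of 1.5 to 2, 69.1% for 2 to 3 and 71.1% for 3 to 5. At ratios of 5 and over it was 219 of 283 (77.4%, 72.2 to 81.9%). In the narrower peaks the same bins gave 53.8%, 55.0%, 60.2%, 66.6% and 68.8%. The intervals of wide and narrower peaks overlapped in every bin. The interval of the wide domains began above the narrower share at ratios of 2 to 3 (60.9 to 76.3%) and of 5 and over. Wide domains had more unequal arms, and the 12.5-point difference was not adjusted for this. At a high ratio the shorter arm is a small part of the domain, which can leave less room for H3K4me3 on that side. The TAF3 summit sets both the ratio and the side. The part of either in the rise of the share with the ratio was not tested.

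**Figure D2:**
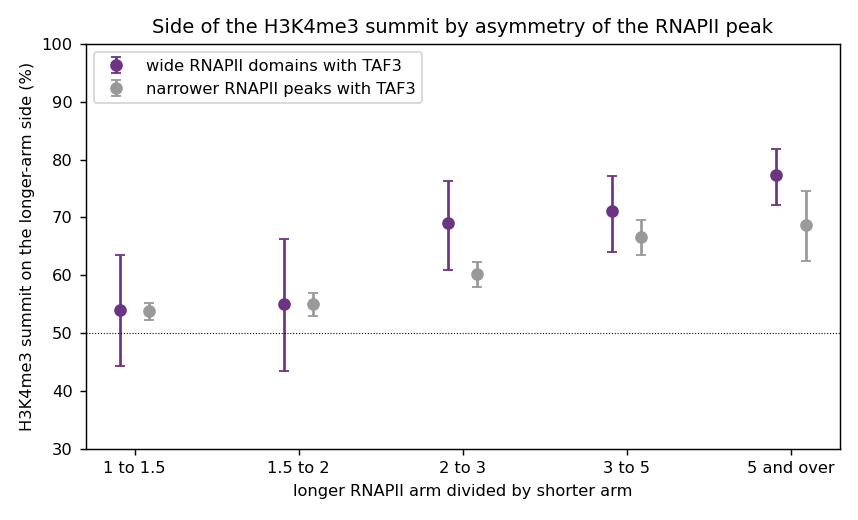
Percent of RNAPII peaks with the H3K4me3 summit on the longer-arm side of the TAF3 summit (vertical axis, starting at 30%), in bins of the ratio of the longer to the shorter arm. Points are shares for wide domains with TAF3 (purple) and narrower peaks with TAF3 (grey), bars are 95% Wilson intervals and the dotted line marks 50%; the share in wide domains was 54.0% in the lowest bin and 77.4% in the highest.

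Displacements of every size leaned toward the longer arm in wide domains. Of 109 wide domains with the summits at most 100 bp apart, 70 (64.2%) had H3K4me3 on that side, against 1006 of 2207 narrower peaks (45.6%). Fragments in the libraries were 200 bp, so summits this close are less than 1 fragment apart and their side is less certain. The peak caller also used unlike fragment lengths, 162 bp for H3K4me3 and 120 bp for TAF3. For distances above 100 and up to 300 bp the counts were 202 of 265 wide domains (76.2%), against 2260 of 4480 narrower peaks (50.4%). From there to 1000 bp they were 224 of 336 (66.7%), against 2510 of 3584 narrower peaks (70.03%). Above 1000 bp they were 39 of 60 (65.0%), against 248 of 299 narrower peaks (82.9%). The higher share in wide domains was thus seen up to 300 bp. From there to 1000 bp the interval of the wide domains (61.5 to 71.5%) included the narrower share. Above 1000 bp the narrower peaks had the higher share. The shorter arm of narrower peaks had a median of 617 bp, which leaves little room for a distant summit on that side. The part of arm length in these shares was not tested.

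H3K4me3 extended to both sides of TAF3, somewhat farther toward the longer arm, and the RNAPII signal left uncovered lay mostly on the longer arm. The longer arm is by definition the side where RNAPII runs farther, so the values of RNAPII beyond H3K4me3 describe the domains and are no finding of their own. Measured from the TAF3 summit, the H3K4me3 peak extended a median of 1763 bp toward the longer arm and 1336.5 bp toward the shorter arm in wide domains, against 1357 and 1076 bp in narrower peaks. On the longer arm RNAPII continued a median of 4159.5 bp beyond the end of H3K4me3 (quartiles 2666.5 and 6281.75 bp). On the shorter arm it continued 166 bp (quartiles -182.75 and 872 bp), where a negative value means that H3K4me3 extended past RNAPII. H3K4me3 passed the domain end in 15 of 770 wide domains on the longer arm and in 308 of 770 on the shorter arm, against 7665 and 8960 of 10570 narrower peaks. It lay wholly inside the domain in 455 of 770 wide domains (59.1%), against 615 of 10570 narrower peaks (5.82%), whose median length of 1679 bp is below the median width of their H3K4me3 peaks. The length limit that chose the members thus bears directly on this count.

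The H3K4me3 peaks of wide domains were wider but not of higher fold. Their median width was 3156.5 bp with 1149.5 tags, against 2418.5 bp with 790 tags in narrower peaks. The median H3K4me3 fold enrichment was 133 in wide domains (quartiles 101.8 and 161), against 144 in narrower peaks (quartiles 106 and 184). TAF3 peaks in wide domains had a median width of 2271 bp, 346 tags and a fold enrichment of 42.0, against 1528 bp, 183 tags and 36.2 in narrower peaks. RNAPII tags averaged over the domain had a median of 193 per kb in wide domains, against 97.7 per kb in wide peaks without TAF3 and 229 per kb in narrower peaks with TAF3. The quartiles of TAF3 and of H3K4me3 fold overlapped widely between wide and narrower peaks.

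Averaged over all members, TAF3 and H3K4me3 covered a restricted stretch under a long polymerase signal. At 1000 bp from the TAF3 summit toward the longer arm, 99.9% of the domains were covered by RNAPII, 89.4% by H3K4me3 and 68.2% by TAF3. At 2000 bp the shares were 100%, 41.0% and 22.2%, and at 4000 bp they were 85.2%, 11.4% and 6.20%. Under the length limit of 5000 bp the longer arm was at least 2557 bp in every member. The RNAPII share of 100% at 2000 bp thus follows from the choice of members. Toward the shorter arm, RNAPII covered 77.8%, H3K4me3 68.9% and TAF3 47.5% of domains at 1000 bp, and 36.5%, 17.2% and 8.73% at 2000 bp. RNAPII ends sooner on the shorter side by the definition of the arms, so the smaller gap to H3K4me3 there is no finding of its own. TAF3 peaks covered a median of 33.0% of a wide domain's bases and H3K4me3 peaks 42.0%, against 89.3% and 100% in narrower peaks, where the shorter length leaves less to cover. H3K4me3 covered under 50% of the bases in 512 of 790 wide domains (64.8%).

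**Figure D3:**
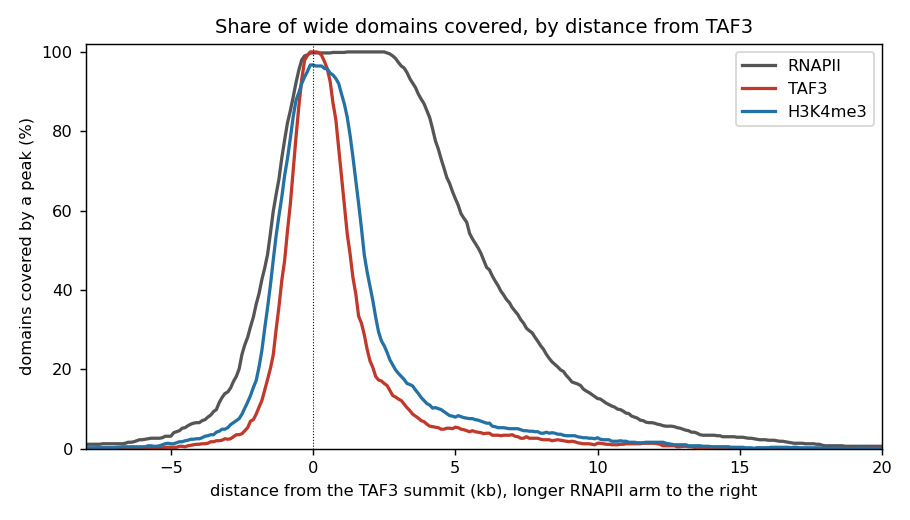
Percent of the 790 wide domains covered by an RNAPII, TAF3 or H3K4me3 peak (vertical axis) at each distance in kb from the strongest TAF3 summit (horizontal axis, longer RNAPII arm to the right), in steps of 100 bp. The H3K4me3 line drops to 41.0% at 2000 bp on the longer-arm side. RNAPII covers 100% of the domains there because of the length limit that chose them.

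Longer domains had longer RNAPII arms, while the reach of H3K4me3 toward the longer arm and its fold changed less. The domains were divided into 4 classes by length, 398 of 5000 to 7500 bp, 196 of 7500 to 10000 bp, 147 of 10000 to 15000 bp and 49 of at least 15000 bp. From the shortest to the longest class, the median longer arm was 4478, 6900.5, 9478 and 14395 bp. The median reach of H3K4me3 toward that arm was 1695, 1729.5, 1880 and 2097.5 bp. The median shorter arm was 1454, 1609, 1850 and 3992 bp. H3K4me3 was present in 96.7%, 98.0%, 98.6% and 98.0% of the domains, and its median fold enrichment was 134, 126, 137 and 142. The median width of the H3K4me3 peak was 3037, 2965.5, 3451 and 4051.5 bp, so it was widest in the longest class. The median share of domain bases that H3K4me3 covered was 49.7%, 36.7%, 33.9% and 34.9%.

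Across the domains, length had a Spearman correlation of 0.91 with the longer arm and 0.27 with the shorter arm (n = 790), both of which are parts of it. The correlation of the longer arm with the H3K4me3 reach on that side was 0.12 (n = 770). For the shorter arm and the H3K4me3 reach on its side it was higher, 0.34 (n = 770). Length correlated at 0.13 with the width of the H3K4me3 peak and at 0.018 with H3K4me3 fold (both n = 770). Its correlation with TAF3 fold was 0.13 (n = 790). TAF3 and RNAPII fold correlated at 0.82 (n = 790), and both are set over the same input library. These coefficients describe domains of single libraries.

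**Figure D4:**
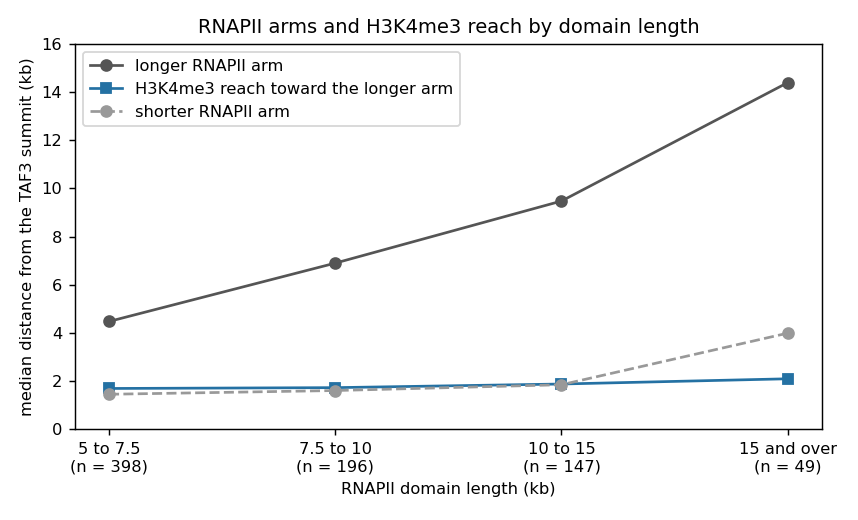
Median distance from the TAF3 summit in kb (vertical axis) to the end of the longer RNAPII arm, of the H3K4me3 peak on that side and of the shorter RNAPII arm, in 4 classes of domain length with the number of domains below each. The longer arm spans 4478 to 14395 bp across the classes and the H3K4me3 reach 1695 to 2097.5 bp.

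Some of the wide domains held several TAF3 peaks. There were 633 with 1 TAF3 peak, 142 with 2, 12 with 3 and 3 with 4, so that 157 of 790 wide domains had at least 2 (19.9%, 95% interval 17.2 to 22.8%), against 136 of 10756 narrower peaks (1.26%), where the share over all RNAPII peaks was 1.17%. With the full TAF3 list, which includes peaks under the authors' filter, 885 wide domains had TAF3 and 35.7% of them had at least 2 TAF3 peaks. With the filtered list, the share of the 790 members was 11.1%, 21.9%, 31.3% and 49.0% from the shortest to the longest length class. Longer regions have more room for peaks, and both the length and the TAF3 list belong to the choice of members. At least 2 H3K4me3 peaks were present in 172 of 790 wide domains (21.8%, 19.0 to 24.8%), against 276 of 10756 narrower peaks (2.57%) and 1.94% of all RNAPII peaks.

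Where a wide domain held exactly 2 TAF3 peaks, their summits were a median of 3983.5 bp apart (quartiles 2217.75 and 6366 bp). The weaker peak lay on the longer arm in 116 of 142 such domains (81.7%, 95% interval 74.5 to 87.2%), where that arm made up a mean of 75.3% of the length. It overlapped an H3K4me3 peak in 129 (90.8%), where 97.5% of all wide TAF3 domains had an H3K4me3 peak anywhere in them. The domain held 1 H3K4me3 peak in 47 of the 142 and 2 in 83. Over all 157 domains with at least 2 TAF3 peaks, every TAF3 peak shared a single H3K4me3 peak in 48 (30.6%). The second peak had a median of 0.531 times the fold enrichment of the strongest. Among the 633 domains with 1 TAF3 peak, 66 (10.4%) nevertheless had at least 2 H3K4me3 peaks.

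The member at chr12:122229169-122243588 (14420 bp) was 1 of 3 with 4 TAF3 peaks; the other two were on chromosome 8. Its TAF3 peaks had fold enrichments of 63.3, 61.95, 25.9 and 45.9, with summits 0, 2971, 6612 and 10521 bp from the strongest along the longer arm. The first 2 lay at least partly on an H3K4me3 peak of 6266 bp and 195-fold, and the others on peaks of 2092 bp and 74.96-fold and of 3671 bp and 210-fold. H3K4me3 covered 81.2% of this domain, against the median of 42.0% over all members. The RNAPII summit lay by the farthest TAF3 peak, 10487 bp from the strongest. At chr16:763607-786733 (23127 bp) 3 TAF3 peaks of 24.8-, 44.6- and 24.4-fold each had an H3K4me3 peak, of 127-, 128- and 113-fold. Their H3K4me3 fold enrichments were thus close while the middle TAF3 peak was the highest.

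The 10 longest members spanned 22332 to 29527 bp, and 5 of them had 1 TAF3 peak. The longest, chr9:139728913-139758439, had TAF3 near its centre, 13593 bp (46.0% of the length) from the nearer end. Its TAF3 peak was 2673 bp wide at 62.4-fold, and H3K4me3 peaks covered 14.1% of the domain. The second, chr1:8061014-8088780 (27767 bp, 8917 RNAPII tags), had its TAF3 summit 2477 bp from one end at 62.9-fold, on an H3K4me3 peak of 7010 bp that extended 5107 bp into a longer arm of 25289 bp. At chr11:69450987-69473760 the TAF3 fold was 121, the H3K4me3 peak was 8310 bp wide at 232-fold, and the RNAPII fold was 302. At chr3:98601854-98624185 a TAF3 peak of 113-fold lay 3720 bp from one end on an H3K4me3 peak of 7779 bp. Among the 10, the H3K4me3 reach toward the longer arm was 1493 to 6311 bp, with longer arms of 13051 to 25289 bp.

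The 5 members of highest TAF3 fold were not among the 10 longest. Over all members, though, the median TAF3 fold was 39.9, 41.4, 48.35 and 52.5 from the shortest to the longest length class. The 5 members of highest TAF3 fold (152 to 178) were 5522 to 10362 bp long, with RNAPII fold enrichments of 210 to 283. They were chr2:8817324-8824106 (178-fold TAF3), chr3:186500266-186509610 (176-fold), chr19:1436256-1446617 (170-fold), chr14:69254861-69264450 (155-fold) and chr15:72520074-72525595 (152-fold). In all 5 the RNAPII summit was at most 100 bp from the TAF3 summit, and in 4 the H3K4me3 summit was on the longer-arm side. At chr14:69254861-69264450 the arms were nearly equal, 4848 and 4741 bp, and H3K4me3 covered 76.1% of the domain.

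Members differed in how near TAF3 came to an end. The 5 longest with the TAF3 summit within 1000 bp of an end were 14359 to 21680 bp long, and H3K4me3 was displaced toward the longer arm in all 5. A shorter arm under 1000 bp leaves little room for the H3K4me3 summit on that side. The count of 5 thus depends in part on how these members were chosen. In chr2:241499421-241521100 (21680 bp) the TAF3 summit lay 404 bp from the end, leaving an arm of 21275 bp on the other side. In chr6:159225992-159240834 (14843 bp) it lay 458 bp from the end at 115-fold, on an H3K4me3 peak of 5265 bp. In chr1:28831834-28846248 (14415 bp) it lay 746 bp from the end at 120-fold, and the H3K4me3 summit was 1299 bp farther in. By contrast the 5 members with TAF3 nearest to the centre (49.7 to 49.9% of the length) were 5099 to 9021 bp long. The longest of these 5, chr19:13259410-13268430, had a TAF3 peak of 6379 bp with 1657 tags.

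**Figure D5:**
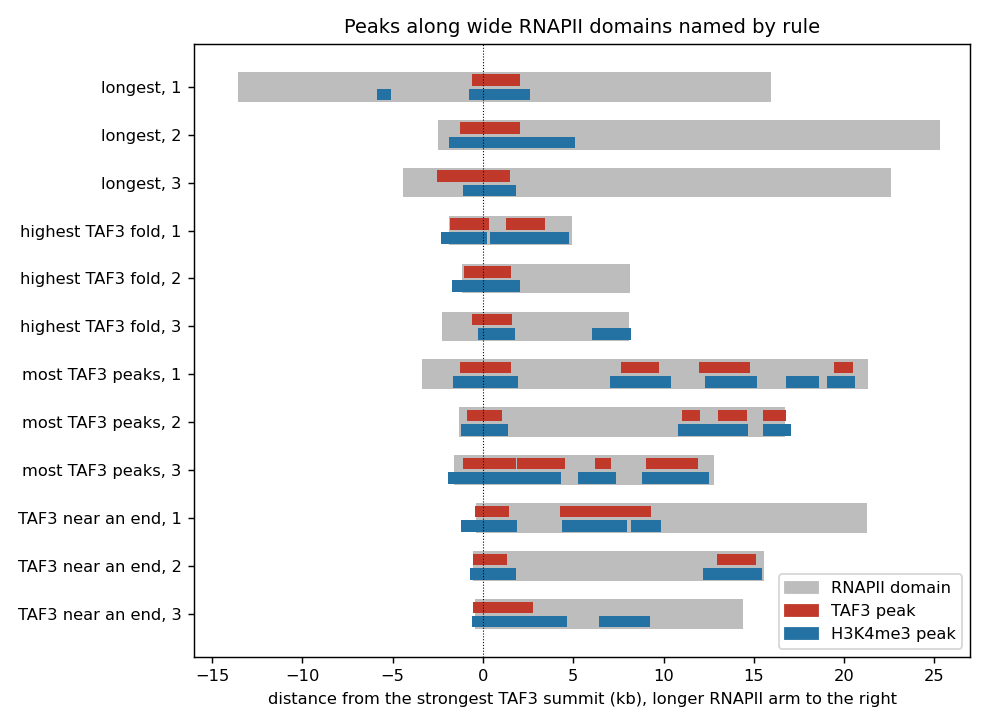
RNAPII domains (grey), TAF3 peaks (red) and H3K4me3 peaks (blue) along 12 members, the first 3 by length, by TAF3 fold enrichment, by number of TAF3 peaks and by length among those with TAF3 within 1000 bp of an end. The horizontal axis is the distance in kb from the strongest TAF3 summit, longer arm to the right. In the second longest domain H3K4me3 reaches 5107 bp into an arm of 25289 bp. The 3 members with most TAF3 peaks have several TAF3 and several H3K4me3 peaks along the arm, and some of their TAF3 peaks share an H3K4me3 peak.

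The 20 wide TAF3 domains without an H3K4me3 peak had weak TAF3 peaks. Their TAF3 fold enrichment ranged from 8.38 to 22.5 with a median of 14.6, against a median of 43.0 in the 770 with H3K4me3. Their median RNAPII fold was 55.7, against 117 with H3K4me3, and their median TAF3 peak width was 1301 bp, against 2280 bp. TAF3 lay nearer to the centre, at a median of 35.4% of the length from the nearer end, against 21.4% over all members. The 5 longest were chr7:130577111-130592859, chr20:61362915-61375732, chr2:110853389-110865876, chr2:227521813-227530125 and chr1:155909596-155917525, with TAF3 fold enrichments of 21.1, 11.5, 17.7, 20.5 and 9.18. In all 5 the RNAPII summit was at most 100 bp from the TAF3 summit.

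Many wide domains had another RNAPII peak next to them, so a called domain need not be the whole extent of the signal. Another filtered RNAPII peak lay under 1000 bp from an end in 411 of 790 members (52.0%), past the longer arm in 305 and past the shorter arm in 189. The same count was not made over the other RNAPII peaks, so it cannot be called particular to wide TAF3 domains. Of the 825 wide peaks without TAF3, 74 lay under 1000 bp from a member. The longest RNAPII peak of all, chr6:159180836-159224557 (43722 bp, no TAF3 and no H3K4me3 peak), lay 1434 bp beyond the longer arm of the member chr6:159225992-159240834. The next longest without TAF3, chr9:21499625-21534538 (34914 bp) and chr16:87860180-87893587 (33408 bp), lay 20052 and 88844 bp from the nearest member. Of the 379 members with no RNAPII peak this near, 371 had H3K4me3, and its summit was on the longer-arm side in 68.7% of these.

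Wide TAF3 domains were unevenly spread over the chromosomes. Chromosome 17 held 100 of the 790 and chromosome 19 held 89, followed by chromosomes 1 (76), 11 (62) and 16 (56). As a share of RNAPII peaks with TAF3, wide domains were 14.2% on chromosome 17 (95% interval 11.8 to 17.0%), 11.0% on chromosome 19 (9.04 to 13.4%) and 6.48% on chromosome 1 (5.21 to 8.03%), against 6.84% over all chromosomes. On chromosome 13 they were 4 of 201 (1.99%, 0.777 to 5.004%) and on chromosome 21 they were 1 of 104 (0.962%). Copy number was not examined.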

How the data were processed

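The 4 libraries were grouped by their titles. CASAVA 1.8.2, MACS 1.4.2 and build hg19 are named in the submitters' processing notes. Per the file headers, peaks were called on each antibody library against the 1 input library, at a p cutoff of 1e-05, with 35 bp tags, a 300 bp band width and no more than 1 tag per position. That limit bounds the tags a dense place can reach. Each peak of the authors' full lists carries a count of tags (unscaled), a fold enrichment (the ratio of summit tags to local background), a score (the negative log10 of p times 10) and a false discovery rate in percent, all values of the authors. The filtered lists keep a fold above 5 and a false discovery rate below 5%.

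Overlap needed 1 shared base. Arms run from the summit of the TAF3 peak of highest fold, and the H3K4me3 peak is the overlapping one nearest to it; gene strand was not used. Wilson and Newcombe 95% intervals cover the counting of peaks only. Members and lists were chosen with earlier results of these data known. Regions named in the text are the 10 longest members, the first 5 by TAF3 fold, by number of TAF3 peaks, by nearness of TAF3 to the centre, by length without H3K4me3 and by length with TAF3 within 1000 bp of an end, the 3 longest wide peaks without TAF3, and 3 on each side of 5000 bp; of these, those that show the spread are given. Gene names and sequences are not given, since no hg19 genome or annotation was used here. Position and overlap code passed 12 of 12 checks on simulated domains and against bedtools 2.31.1. Software was Python 3.11.15 with pandas 2.3.3, numpy 2.4.6, matplotlib 3.10.9 and scipy 1.17.1. Alternatives changed the length limit, the peak filter, the overlap rule, the summit and the joining of neighbouring peaks.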

Additional observations from a re-analysis of the deposited data

Results flagged for a closer look

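Peaks that the authors' filter left out, which the main comparison does not use, overlapped some domains. Of the 20 wide TAF3 domains without a filtered H3K4me3 peak, 12 (60%) overlapped an H3K4me3 peak under the filter, where a count of 0 would allow up to 15%. The share was 112 of 186 (60.2%) in narrower RNAPII peaks with TAF3 and 1407 of 11347 (12.4%) over all RNAPII peaks without filtered H3K4me3. Those H3K4me3 peaks had a median fold enrichment of 9.77 (range 4.96 to 14.7), against 133 for the filtered H3K4me3 peaks of members, and false discovery rates of 5.7 to 50.4% (median 23.4%). Of the 825 wide RNAPII peaks without filtered TAF3, 95 (11.5%) overlapped a TAF3 peak under the filter, where a count of 0 would allow up to 0.364%. Their median TAF3 fold was 9.44 (range 4.21 to 19.2), with false discovery rates of 5.62 to 49.8% (median 14.9%). Among narrower RNAPII peaks without filtered TAF3 the share was 3796 of 12642 (30.03%), so it was lower in the wide peaks. The limit for a count of 0 covers counting only and is no background.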

How the results depend on the processing

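Under 12 other settings, most of them applied to some of the results only, 36 values were recomputed; 20 fell inside the 95% interval of the main one (numbers of domains, within 1.5 times it) and 16 fell outside. Across them the share of domains with H3K4me3 on the longer-arm side was 67.7 to 73.7% and the share with H3K4me3 was 95.3 to 99.0%. With a limit of 10000 bp, H3K4me3 was present in 98.5%, the TAF3 and H3K4me3 summits were 16.7% and 18.6% of the length from the nearer end, TAF3 and H3K4me3 covered 24.8% and 34.4% of bases, and 35.7% had at least 2 TAF3 peaks. With a fold of at least 20 in all lists, 99.0% had H3K4me3 and 14.8% at least 2 TAF3 peaks. With the full TAF3 and H3K4me3 lists, 95.3% had H3K4me3, which covered 40.4% of bases, and 35.7% had at least 2 TAF3 peaks. Joining RNAPII peaks under 1000 bp apart gave 1232 domains, with TAF3 17.1% of the length from the end. With the longer arm at least 2 times the shorter, the longer-arm share was 73.7%. Leaving out members with an RNAPII peak under 1000 bp away, chosen after seeing the data, gave 379 domains with TAF3 19.8% of the length from the end. These alternatives change which domains or peaks are counted; further causes were not tested. No paired analysis was possible because each antibody has 1 library, and no replicate could be left out. Domain ends depend on depth and on the peak caller, which 1 library cannot separate.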
